A study of Mus musculus with 4 samples.

Results

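The tumour necrosis factor (TNF) superfamily is described here in group 2 innate lymphoid cells (ILC2s), ligand genes and receptor genes alike. Members were every gene of the deposited table whose symbol begins with Tnfsf or Tnfrsf, together with 12 further symbols named one by one. Of those 12 symbols, 10 matched a row, and Fasl and Eda2r were not analysed here. This gave 42 genes of 19088 in the table, 17 of them ligands and 25 receptors. The cells were sorted from epididymal fat of male C57BL/6 mice aged 8 weeks, in 2 libraries of genotype R5/+ (WT) and 2 of genotype R5/+Stk11f/f (KO), each made from a small number of sorted cells. All 4 libraries carry the R5 allele. In the field R5 usually names the Red5 allele, which places a red fluorescent reporter and Cre recombinase in the Il5 gene, but the labels do not spell it out, so recombination of Stk11 in cells that do not use Il5, or in only some of the sorted cells, cannot be judged from them. The series title places the question on LKB1, the kinase that Stk11 encodes, and the function of adipose ILC2s.

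Ligands of this superfamily are mostly trimeric membrane proteins, some of them shed by proteases, and each binds 1 or a few receptors. Receptors with a death domain, such as Fas, can start apoptosis. Many receptors of the family recruit TRAF adaptors and signal through NF-kappaB and MAP kinases, in lymphocytes mainly for survival, proliferation and cytokine output. ILC2s are known to respond through GITR, DR3 and TNFR2 and to instruct T cells through OX40 ligand.

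The levels are FPKM, fragments per kilobase of transcript scaled to the mapped fragments of the library, which allows levels of different genes to be set side by side. The 4 libraries listed 9044 to 9666 genes at 1 FPKM or more. Stk11 itself stood at 43.1 and 39.1 FPKM in WT, against 31.9 and 16.6 FPKM in KO, lower in both KO libraries without passing the test (limma, log2 fold change -0.81, adjusted p = 0.548). All 16 genes of an ILC2 marker list were present, summing to 9963 and 10329 FPKM in WT and 9766 and 9466 FPKM in KO. Id2 alone stood at 4870 to 5317 FPKM, so the sums hide shifts of other markers. Of the 16 genes, 6 had a positive log2 fold change, beside 49.1% of all genes tested. Icos stood at 135.6 and 120.1 FPKM in WT, against 272.5 and 280.5 FPKM in KO. Arg1 stood at 574.7 and 834.7 FPKM in WT, against 423.5 and 293.8 FPKM in KO. Markers of mast cells and basophils, 11 of 11 tested with a positive log2 fold change, summed to 16120 and 13439 FPKM in WT, against 25187 and 39431 FPKM in KO, so these transcripts moved with the group, and Tpsb2 and Mcpt4 were called as higher in KO. Erythroid genes summed to between 26662 and 84124 FPKM with overlapping groups. The B cell list summed to 5.79 and 0.19 FPKM in WT and 20.4 and 10.4 FPKM in KO. Of the other lists, T cell genes summed to 395 to 488 FPKM, nearly all of it Cd3g and Lat. Cd5 was at 0, while Cd3e stood at 1.53 and 0.24 FPKM in WT and 1.87 and 4.91 FPKM in KO. The natural killer and ILC1 list summed to 5.55 and 1.31 FPKM in WT and 21.5 and 14.6 FPKM in KO, with Klrk1 as its main gene. The myeloid list summed to between 0.71 and 13.6 FPKM. Its genes Csf1r, Itgax and Fcgr1 were at 0, while Cd68 reached 8.66 FPKM in KO replicate 2 and Adgre1 4.2 FPKM in WT replicate 2. Cd14 stood at 0.04 and 2.87 FPKM in WT and 1.64 and 2.38 FPKM in KO. Neutrophil genes summed to at most 3.74 FPKM, with Ly6g at 0 and Cxcr2 at 1.84 to 3.36 FPKM. The stromal and adipocyte list summed to between 19.4 and 161.6 FPKM, the highest in WT replicate 1, where Fabp4 alone stood at 138.9 FPKM. In such bulk samples, fewer cells of a type and less RNA per cell cannot be told apart, and the part of these other cells in the results below was not tested.

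Sequence upstream of the start sites is shown for 4 of the 8 members with an unadjusted p under 0.05, picked after their motifs were seen, because NF-kappaB and AP-1, the factors this superfamily activates, have short recognisable motifs. Each line gives the 250 bases before an annotated RefSeq start on GRCm38.p6, 5′ to 3′ on the gene's strand, with matches to the kappaB consensus or to the AP-1 motif TGANTCA on either strand in capitals. Tnfrsf9 has an outer start (chr4:150919905-150920154, plus strand) and an inner one (chr4:150927749-150927998, plus strand). The Ltb window is chr17:35194257-35194506 (plus strand), the Fas window chr19:34290409-34290658 (plus strand) and the Tnfsf11 window chr14:78308044-78308293 (minus strand).
Tnfrsf9, outer start: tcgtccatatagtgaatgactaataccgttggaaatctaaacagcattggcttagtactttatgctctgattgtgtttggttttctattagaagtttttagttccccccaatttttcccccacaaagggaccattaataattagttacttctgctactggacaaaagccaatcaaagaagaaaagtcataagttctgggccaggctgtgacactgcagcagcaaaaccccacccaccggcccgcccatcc
Tnfrsf9, inner start: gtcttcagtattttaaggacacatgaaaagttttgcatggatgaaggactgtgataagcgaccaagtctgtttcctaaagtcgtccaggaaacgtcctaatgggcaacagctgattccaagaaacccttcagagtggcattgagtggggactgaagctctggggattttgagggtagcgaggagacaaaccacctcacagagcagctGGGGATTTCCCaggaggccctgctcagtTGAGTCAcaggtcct
Ltb: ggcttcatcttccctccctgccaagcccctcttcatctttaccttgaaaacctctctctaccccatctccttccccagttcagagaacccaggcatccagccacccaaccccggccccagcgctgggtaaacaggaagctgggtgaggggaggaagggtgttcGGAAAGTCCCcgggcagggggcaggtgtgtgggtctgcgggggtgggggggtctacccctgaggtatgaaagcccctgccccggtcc
Fas: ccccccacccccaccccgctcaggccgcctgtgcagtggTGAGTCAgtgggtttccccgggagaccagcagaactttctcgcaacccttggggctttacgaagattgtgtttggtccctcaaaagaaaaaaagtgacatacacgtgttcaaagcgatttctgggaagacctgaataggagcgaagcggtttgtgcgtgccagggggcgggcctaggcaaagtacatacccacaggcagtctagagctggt
Tnfsf11: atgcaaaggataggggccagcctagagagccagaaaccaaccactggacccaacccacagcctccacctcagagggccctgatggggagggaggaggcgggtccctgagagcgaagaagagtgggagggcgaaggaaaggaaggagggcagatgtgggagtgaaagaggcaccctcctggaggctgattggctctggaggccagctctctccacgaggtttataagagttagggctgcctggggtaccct
The inner Tnfrsf9 window held overlapping kappaB matches over bases -43 to -33 counted from the start, and an AP-1 match at -15 to -9. Its outer window held neither. Ltb held a kappaB match at -87 to -78 and Fas an AP-1 match at -211 to -205, and the Tnfsf11 window held neither. The windows of Tnfsf8, Tnfrsf12a and Lta, which are not shown, held neither motif. For Tnfsf4, the remaining member of the 8, no window was found. Over all 36 windows found for 32 members, 3 held a kappaB match (8.33%) and 6 an AP-1 match (16.7%). Among 32851 windows of the same length over all genes, 3.9% held the first and 6.75% the second. A match describes the letters only, and its use in these cells was not measured.

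Of the 42 members, 28 reached a mean of 1 FPKM over the 4 libraries and were tested, 13 ligands and 15 receptors. In the KO against WT comparison 1 member, Tnfrsf9, was called as higher in KO (limma, adjusted p = 0.0475 over all genes, threshold 0.05). Of the 9818 genes tested 0.214% were called, and 0.163% as higher in KO. The call of Tnfrsf9 ended in 10 of 14 alternative settings. No member was called as lower in KO, against 0.0509% of all genes. At an unadjusted p under 0.05 there were 8 members, 4 higher and 4 lower in KO, against 9.18% of all genes (4.69% higher and 4.49% lower). The higher ones were Tnfrsf9, Tnfrsf12a, Lta and Ltb, and the lower ones Tnfsf8, Tnfsf11, Tnfsf4 and Fas. The KO libraries both lay outside the WT range for 16 of the 28 members, 9 above and 7 below, against 39.1% of all genes tested (18.5% above and 20.6% below). The median log2 fold change was 0.02 over the tested ligands and 0.15 over the tested receptors, beside -0.01 over all genes. Tnfsf8, Tnfsf12 and Tnfrsf26 had a mean under 1 FPKM in 1 group and passed the level filter through the other, and these counts are given as a description. The summed mast cell and basophil markers, given above, were also higher in both KO libraries, and their part in these differences was not tested. Leaving the erythroid and mast cell markers out of the library total changes the scaling only and removes no RNA of those cells from any gene. In that setting, chosen after seeing the data, Tnfrsf9 had a log2 difference of 2.01 (limma, adjusted p = 0.0313).

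**Figure D1:**
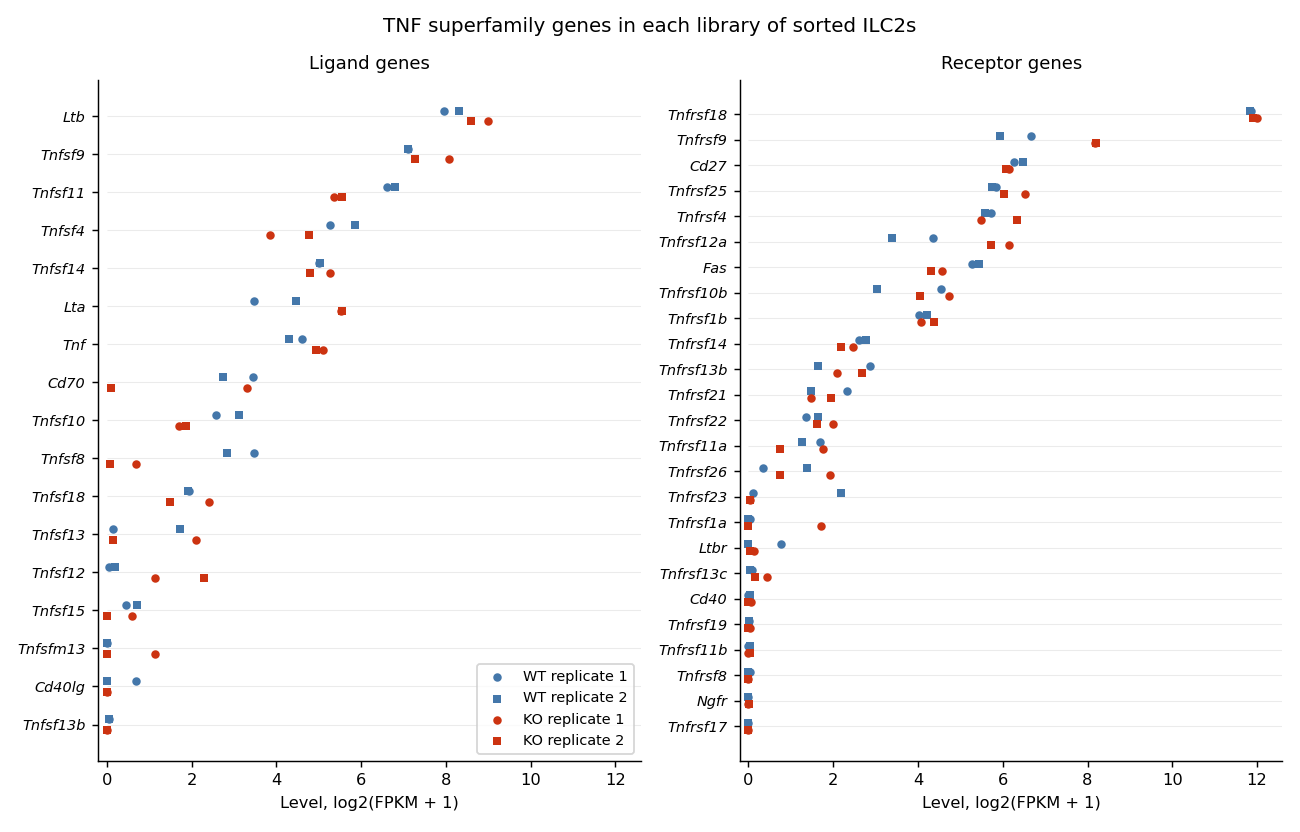
Level of each member in each library on the log2(FPKM + 1) scale, ligands on the left and receptors on the right, ordered by the mean; circles are replicate 1 and squares replicate 2, blue WT and red KO. Tnfrsf18, at 3662 to 4072 FPKM, stands far to the right of every other member. Of the 28 tested members the colours separate in 16, Tnfrsf9, Tnfrsf12a, Tnfsf11 and Tnfsf8 among them, beside 39.1% of all genes tested.

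Among the ligands, Ltb had the highest level. It encodes lymphotoxin beta, the membrane anchor of the heterotrimer it forms with lymphotoxin alpha. Ltb stood at 246.6 and 314.7 FPKM in WT, against 509.8 and 388.3 FPKM in KO. Both KO libraries were above both WT libraries, and the log2 fold change was 0.67 (SE 0.22; limma, adjusted p = 0.380). Lta, which encodes the soluble partner, stood at 10.04 and 20.95 FPKM in WT, against 45.1 and 46.0 FPKM in KO. The KO libraries were close to each other and above both WT libraries, with a log2 difference of 1.58 (SE 0.39; limma, adjusted p = 0.218). Tnf, the founding member and an inflammatory cytokine gene, stood at 23.3 and 18.6 FPKM in WT, against 33.4 and 29.7 FPKM in KO, again without overlap (log2 fold change 0.58, SE 0.33; limma, adjusted p = 0.630). These 3 genes are neighbours, lying within 11 kb on chromosome 17 from 35194507 (start of Ltb) to 35205578 (end of Lta), and none of them passed the test over all genes.

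Tnfsf9 encodes the ligand of 4-1BB and was the ligand of the next highest level. It stood at 137.4 and 136.3 FPKM in WT, against 268.8 and 154.3 FPKM in KO. The groups did not overlap, but KO replicate 1 carried most of the difference (log2 fold change 0.57, SE 0.28; limma, adjusted p = 0.572). The difference was 0.17 on the log2 scale once KO replicate 1 was left out. Tnfsf9 lies on chromosome 17 within 89 kb of Cd70 and Tnfsf14, and these neighbours did not share its order. Tnfsf14, the gene of LIGHT, stood at 31.1 and 31.8 FPKM in WT, against 37.6 and 27.0 FPKM in KO. Cd70, the gene of the CD27 ligand, stood at 9.96 and 5.65 FPKM in WT, against 8.90 and 0.07 FPKM in KO. In both genes the groups overlapped.

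Of the 13 tested ligands, 4 stood lower in both KO libraries and 5 higher, beside 20.6% and 18.5% of all genes tested. None passed the test over all genes (0 of 13, limma), against 0.214% of all genes, at which 0 of 13 says little. At an unadjusted p under 0.05 there were 5 of the 13 (limma), against 9.18% of all genes. Tnfsf11 encodes RANKL, known for driving osteoclast formation and for its role in lymphoid tissue. It stood at 96.2 and 110.2 FPKM in WT, against 39.9 and 45.6 FPKM in KO. The WT mean was 2.42 times the KO mean, with both pairs of libraries close together, and the log2 fold change was -1.25 (SE 0.26; limma, adjusted p = 0.146). Tnfsf4 encodes OX40 ligand, through which ILC2s can costimulate T cells. Its levels were 37.5 and 56.6 FPKM in WT and 13.4 and 26.3 FPKM in KO, without overlap but with wide spread in both groups (log2 fold change -1.25, SE 0.40; limma, adjusted p = 0.367). For Tnfsf4 the difference was -0.78 on the log2 scale once KO replicate 1 was left out.

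Tnfsf8, which encodes CD30 ligand, had the most negative log2 fold change of the family. It stood at 10.2 and 6.18 FPKM in WT, against 0.61 and 0.05 FPKM in KO. Its KO values are close to 0, and no ratio of means is given, since it would rest on which KO library is used. On the log2(FPKM + 1) scale, which understates changes of low genes, the log2 fold change was -2.78 (SE 0.57; limma, adjusted p = 0.144), and with a pseudocount of 0.1 it was -4.62. Its neighbour Tnfsf15, the gene of TL1A, lies within 137 kb on chromosome 4 and was under the filter, at 0.37 and 0.63 FPKM in WT and 0.51 and 0.01 FPKM in KO. Tnfsf10 encodes the death ligand TRAIL and stood at 5.0 and 7.73 FPKM in WT, against 2.27 and 2.63 FPKM in KO. Both KO values were under both WT values (log2 fold change -1.07, SE 0.52; limma, adjusted p = 0.561).

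The remaining ligands were low. Tnfsf12, the gene of TWEAK, stood at 0.04 and 0.15 FPKM in WT, against 1.20 and 3.87 FPKM in KO, and KO was higher by 1.58 on the log2 scale (SE 0.72; limma, adjusted p = 0.546). For Tnfsf12 the log2 difference was 3.60 with a pseudocount of 0.1, and 1.01 to 2.15 with 1 library left out. Tnfsf13, the gene of APRIL, stood at 0.11 and 2.34 FPKM in WT, against 3.32 and 0.10 FPKM in KO, with high and low values in each group. Tnfsf12 and Tnfsf13 adjoin each other on chromosome 11, and Tnfsfm13 is annotated across both (69682577 to 69696098), so the sharing of reads among the 3 genes is uncertain. Tnfsfm13 was listed at 0 in 3 libraries and at 1.19 FPKM in KO replicate 1. Tnfsf18, the gene of GITR ligand, stood at 2.82 and 2.80 FPKM in WT, against 4.30 and 1.81 FPKM in KO. Cd40lg, by which helper T cells activate B cells, was listed at 0.61 FPKM in WT replicate 1 and at 0 elsewhere. Tnfsf13b, the gene of the B cell survival factor BAFF, did not exceed 0.04 FPKM.

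Among the receptors, Tnfrsf18 stood apart. It encodes GITR, a costimulatory receptor of regulatory T cells and ILC2s, and lies on chromosome 4 from 156026322 to 156028894. Its level was 3712 and 3662 FPKM in WT and 4072 and 3838 FPKM in KO. Among all genes it ranked 41 and 50 in WT and 32 and 36 in KO. Tnfrsf18 made up 90.3% and 91.4% of the summed receptor FPKM of the family in WT and 86.3% and 86.0% in KO. KO stood above WT without overlap by a small step (log2 fold change 0.10, SE 0.13; limma, adjusted p = 0.862). Tnfrsf4, the gene of OX40 and its neighbour within 15 kb, stood at 52.2 and 47.0 FPKM in WT, against 44.1 and 80.1 FPKM in KO, with overlapping groups.

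Tnfrsf9 was the member called as higher in KO. It encodes 4-1BB (CD137), a TRAF-linked costimulatory receptor induced on activated lymphocytes, and lies on chromosome 4 from 150920155 to 150946104. Its level was 100.6 and 60.0 FPKM in WT and 286.4 and 292.3 FPKM in KO. The KO libraries were nearly equal and both far above WT, and the KO mean was 3.60 times the WT mean. The log2 fold change was 1.88 (SE 0.28; limma, adjusted p = 0.0475). With 1 library left out the log2 difference ranged from 1.51 (without WT replicate 2) to 2.25 (without WT replicate 1), and the adjusted p from limma was then 0.253 to 0.650. The call ended with any 1 of the 4 libraries left out. Such a fit has 1 library in 1 group. Its 1 residual degree of freedom comes from the other group, and the variance is moderated with the spread over all genes. It assumes that the lone library varies alike, so the loss is not read further. With all 4 libraries kept, the call also ended under the replicate block (limma, adjusted p = 0.0586). It ended as well with a pseudocount of 0.1 (limma, adjusted p = 0.0611), median-ratio scaling (0.0842) and quantile normalization (0.115). Keeping low genes (0.52) or fitting without trend or robust moderation (0.492) ended it too.

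Tnfrsf12a had the largest positive log2 fold change of the family on the log2(FPKM + 1) scale, while with a pseudocount of 0.1 that of the low gene Tnfsf12 (3.60) was above its own (2.16). It encodes Fn14, the TWEAK receptor, a small receptor known to be induced by growth factors and tissue injury. It stood at 19.4 and 9.39 FPKM in WT, against 70.0 and 52.2 FPKM in KO, and the KO mean was 4.25 times the WT mean. Both KO libraries were well above both WT libraries (log2 fold change 2.08, SE 0.40; limma, adjusted p = 0.118). Tnfrsf25, the gene of DR3, through which TL1A activates ILC2s, stood at 56.4 and 53.1 FPKM in WT, against 91.2 and 64.5 FPKM in KO. The groups did not overlap, and the log2 fold change was 0.48 (SE 0.28; limma, adjusted p = 0.644).

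Fas and Cd27 stood lower in KO. Fas encodes the death receptor CD95 and was at 37.5 and 42.2 FPKM in WT, against 22.7 and 18.9 FPKM in KO. The WT mean was 1.92 times the KO mean, without overlap (log2 fold change -0.91, SE 0.31; limma, adjusted p = 0.407). Cd27, a costimulatory receptor gene of lymphocytes, was at 76.4 and 88.2 FPKM in WT, against 70.2 and 66.0 FPKM in KO. The step between its groups was small (log2 fold change -0.27, SE 0.25; limma, adjusted p = 0.809). On chromosome 6, Cd27 lies within 130 kb of Ltbr and Tnfrsf1a, which were both under the filter.

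The receptors of TNF itself differed in level. Tnfrsf1b, the gene of TNFR2, stood at 15.3 and 17.6 FPKM in WT, against 15.9 and 19.7 FPKM in KO. Tnfrsf1a, the gene of the death-domain receptor TNFR1, was listed at 0.03 and 0 FPKM in WT, against 2.26 and 0 FPKM in KO, so a single library carried its signal. Tnfrsf10b, the mouse death receptor for TRAIL, stood at 22.4 and 7.22 FPKM in WT, against 25.4 and 15.5 FPKM in KO. Its WT libraries differed more from each other than the group means did.

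The other tested receptors were under 7 FPKM in every library. Tnfrsf14, the gene of HVEM, which binds LIGHT, stood at 5.07 and 5.82 FPKM in WT, against 4.54 and 3.54 FPKM in KO, just without overlap. Tnfrsf13b, the gene of TACI, a receptor for APRIL and BAFF, was at 6.27 and 2.10 FPKM in WT, against 3.28 and 5.44 FPKM in KO. Tnfrsf11a, the gene of RANK, was at 2.22 and 1.41 FPKM in WT, against 2.41 and 0.67 FPKM in KO. In both genes the groups overlapped. Tnfrsf21, the gene of death receptor DR6, ranged from 1.76 to 4.0 FPKM with overlapping groups. The paralogues Tnfrsf22, Tnfrsf23 and Tnfrsf26 lie within 79 kb on chromosome 7, and reads shared among them make their values uncertain. Tnfrsf22, a decoy receptor for TRAIL in the mouse, ranged from 1.56 to 3.0 FPKM and Tnfrsf26 from 0.27 to 2.82 FPKM. Tnfrsf23, a like decoy, was listed at 3.52 FPKM in WT replicate 2 and at no more than 0.07 FPKM elsewhere.

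Besides Ltbr, Tnfrsf1a and Tnfrsf23, a further 7 receptors were under the filter. Of these Tnfrsf13c, the BAFF receptor gene, ranged from 0.03 to 0.35 FPKM. Cd40, a receptor of B cells and myeloid cells, did not exceed 0.04 FPKM, and Tnfrsf8, the gene of CD30, did not exceed 0.02 FPKM. Tnfrsf11b (osteoprotegerin, the decoy for RANKL), Tnfrsf19 and Ngfr (the neurotrophin receptor p75) did not exceed 0.03 FPKM. Tnfrsf17, the plasma cell receptor gene of BCMA, was listed at 0 in all 4 libraries.

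**Figure D2:**
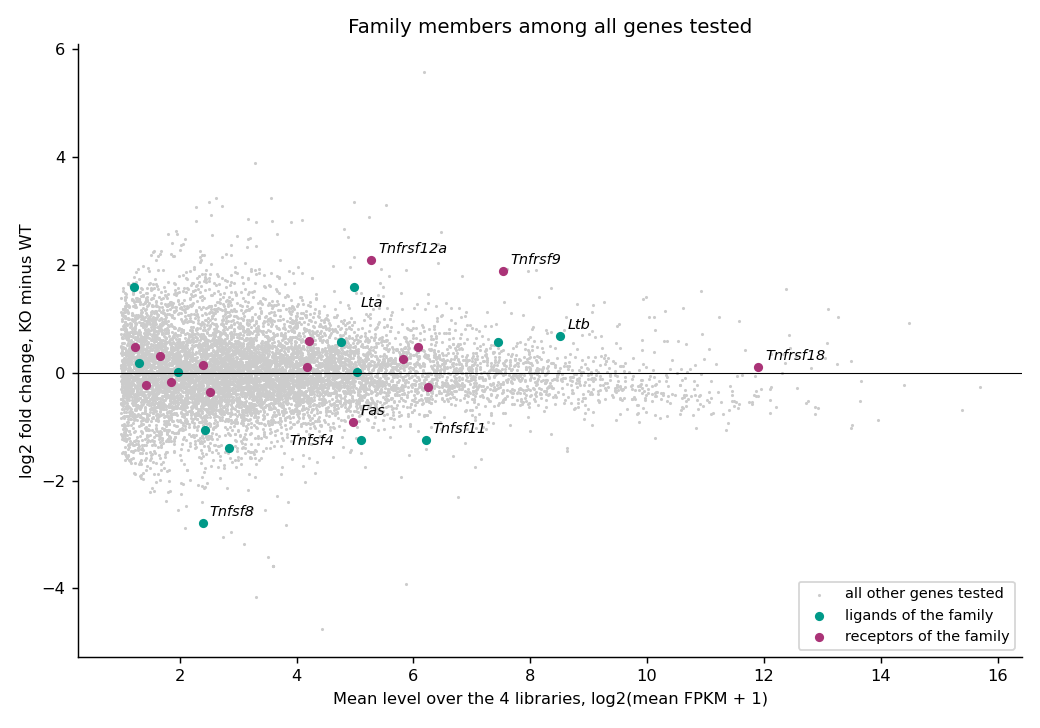
Each point is a tested gene, with its mean level over the 4 libraries on the horizontal axis as log2(mean FPKM + 1) and its log2 fold change, KO minus WT, on the vertical axis; family ligands are green, receptors purple and all other genes grey. Labels mark Tnfrsf18 and the 8 members with an unadjusted p under 0.05, of which Tnfrsf12a at 2.08 is the highest and Tnfsf8 at -2.78 the lowest.

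Ligands and receptors known to bind each other were set side by side as 27 pairs. Both sides reached a mean of 1 FPKM in 12 pairs, the ligand alone in 9, the receptor alone in 2 and neither side in 3, and the pair of Fasl and Fas was not analysed here. Where the ligand stood alone, the receptor was under 1 FPKM in every library, except for Tnfrsf1a in KO replicate 1 (2.26 FPKM) and Tnfrsf23 in WT replicate 2 (3.52 FPKM). Ltb had a mean of 364.8 FPKM while its receptor gene Ltbr stood at 0.70 and 0 FPKM in WT and 0.10 and 0.02 FPKM in KO. Tnfsf8 met a receptor gene, Tnfrsf8, at 0.02 FPKM in WT replicate 1 and 0 elsewhere. In the opposite case, Tnfrsf25 had a mean of 66.3 FPKM and its ligand gene Tnfsf15 one of 0.38 FPKM.

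Within the 12 pairs the ratio of ligand FPKM to receptor FPKM was taken in each library. It is a ratio of RNA levels per length, given as a description with no test. The KO ratios lay outside the WT range in 7 pairs, above it in 3 and below it in 4, and overlapped it in 5. Of single genes tested, 39.1% had groups that did not overlap, and several pairs share a member, so nothing is read from this count. For Tnfsf9 over Tnfrsf9 the ratio was 1.36 and 2.27 in WT and 0.938 and 0.528 in KO. The ligand thus had the higher level in both WT libraries and the receptor in both KO libraries. For Tnfsf4 over Tnfrsf4 it was 0.718 and 1.20 in WT and 0.304 and 0.329 in KO, lower in both KO libraries. For Lta over Tnfrsf1b it was 0.655 and 1.19 in WT and 2.84 and 2.33 in KO, higher in both.

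The TRAIL pairs shared the ligand Tnfsf10 and so are not independent of each other. Their ratio was 0.223 and 1.07 in WT and 0.0894 and 0.170 in KO over Tnfrsf10b. Over Tnfrsf22 it was 3.21 and 3.66 in WT and 0.757 and 1.27 in KO. Tnfrsf22 stood at only 1.56 to 3.0 FPKM, and reads shared with its paralogues make this ratio uncertain. Tnfsf14 over Tnfrsf14 gave 6.14 and 5.47 in WT and 8.28 and 7.63 in KO, a small upward step. Tnfsf12 over Tnfrsf12a was far under 1 in all libraries, at 0.00207 and 0.0160 in WT and 0.0171 and 0.0741 in KO. RNA of the TWEAK receptor was thus present with little RNA of its ligand in these sorted cells.

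In the pairs that overlapped, Tnf over Tnfrsf1b gave 1.52 and 1.05 in WT and 2.10 and 1.51 in KO. Tnfsf11 exceeded Tnfrsf11a in every library, by 43.3 and 78.2 times in WT and by 16.5 and 68.0 times in KO. These ratios rest on a low receptor gene, with Tnfrsf11a at 2.41 and 0.67 FPKM in KO. Cd70 over Cd27 gave 0.130 and 0.0641 in WT and 0.127 and 0.00106 in KO, where the last value follows from the 0.07 FPKM of Cd70 in KO replicate 2. Tnfsf13 over Tnfrsf13b ranged from 0.0175 to 1.11 with both extremes in WT. Tnfsf18 over Tnfrsf18 was the lowest ratio, at most 0.00106.

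**Figure D3:**
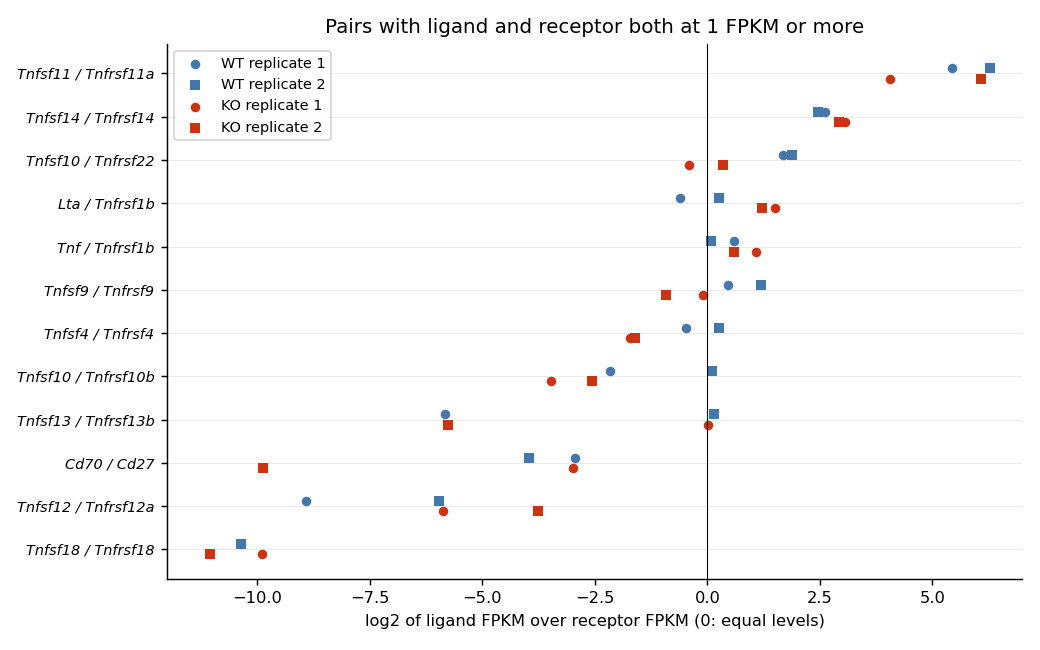
For the 12 pairs with both sides at a mean of 1 FPKM or more, the horizontal axis gives the log2 of ligand FPKM over receptor FPKM in each library, with 0 where the levels are equal; circles are replicate 1 and squares replicate 2, blue WT and red KO. Tnfsf9 over Tnfrsf9 crosses 0 between the groups, from 1.36 and 2.27 on the linear scale in WT to 0.938 and 0.528 in KO, while Tnfsf13 over Tnfrsf13b splits within each group.

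Genes that carry signals from these receptors were taken from a list of 42 adaptors and effectors, of which 41 were tested. None was called over all genes (0 of 41, limma, adjusted p under 0.05), against 0.214% of all genes, at which 0 of 41 says little. At an unadjusted p under 0.05 there was 1, Birc2 (limma), against 9.18% of all genes. The groups did not overlap in 16 of the 41 (39.0%), beside 39.1% of all genes tested. The median log2 fold change of the 41 genes was -0.12, with 19 positive, beside -0.01 over all genes. Birc2 encodes cIAP1, a ubiquitin ligase recruited with TRAF2 to TNF receptors. It stood at 56.6 and 52.8 FPKM in WT, against 36.1 and 18.1 FPKM in KO, lower in both KO libraries (log2 fold change -1.07, SE 0.37; limma, adjusted p = 0.409).

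The 4 signalling genes of the highest mean level were Nfkbia, Tnfaip3, Nfkb1 and Traf1. Nfkbia, the gene of the inhibitor IkappaB-alpha, stood at 4849 and 4028 FPKM in WT, against 7175 and 4441 FPKM in KO, with overlapping groups. Tnfaip3, the gene of the deubiquitinase A20, stood at 563 and 568 FPKM in WT, against 489 and 411 FPKM in KO. Both KO values were lower (log2 fold change -0.33, SE 0.18; limma, adjusted p = 0.607). Nfkb1, which encodes the p50 subunit, stood at 383 and 237 FPKM in WT, against 240 and 218 FPKM in KO. Traf1, an adaptor that binds 4-1BB among others, stood at 173 and 180 FPKM in WT, against 231 and 163 FPKM in KO, with overlap in both genes.

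Of 8 genes on a list for ligand and receptor processing, 6 were tested. Of these, 0 were called or had an unadjusted p under 0.05 (limma). Over all genes the shares were 0.214% and 9.18%, at which 0 of 6 says little. Furin, a convertase gene, stood at 121.8 and 40.2 FPKM in WT, against 134.0 and 88.8 FPKM in KO. Adam10, a membrane sheddase gene, stood at 35.2 and 34.0 FPKM in WT, against 30.1 and 31.2 FPKM in KO. The intramembrane protease genes Sppl2a and Sppl2b ranged from 8.69 to 13.4 FPKM and from 2.79 to 7.95 FPKM.

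Leaving out each library in turn moved the members to different degrees. Tnfsf11, from -1.35 to -1.16, and Tnfrsf18, from 0.06 to 0.14, moved least among the members of at least 20 FPKM in mean. Lta ranged from 1.08 to 2.08 and Tnfrsf12a from 1.59 to 2.56, lowest without WT replicate 1 for Lta and without WT replicate 2 for Tnfrsf12a. Tnfrsf10b changed sign without WT replicate 2 (-0.17) and Cd70 and Tnfrsf4 without KO replicate 2 (0.21 and -0.16). Rescaling each library to a common total shifted the median over all genes by 0.11 on the log2 scale, and 69% of genes at an unadjusted p under 0.05 were then higher in KO, against 51.1% as deposited. In that setting 5 members were higher and 4 lower, the added one being Tnfsf9.

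**Figure D4:**
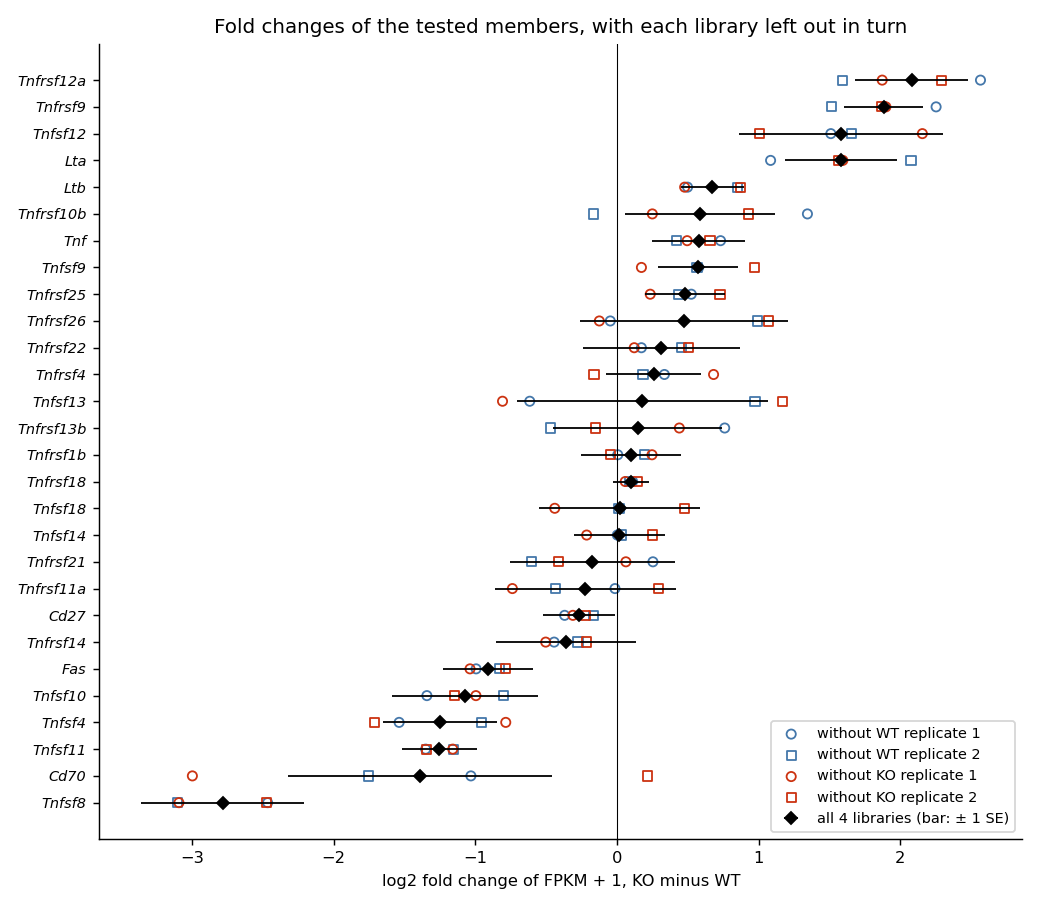
Log2 fold change of FPKM + 1, KO minus WT, for the 28 tested members, with black diamonds and ± 1 SE bars for all 4 libraries and open symbols for the same value with 1 library left out (blue for a WT library, red for a KO library, circle for replicate 1, square for replicate 2). The open symbols of Tnfrsf9 lie between 1.51 and 2.25, while those of Cd70 span -3.0 to 0.21.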

How the data were processed

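RNA was measured in 2 WT and 2 KO libraries of sorted ILC2s, grouped by the sample titles. Separate animals are not stated for the libraries. The p-values therefore reflect the spread among 4 libraries, part of which may be technical. The authors deposited FPKM values per gene, which divide by transcript length and by a library total that a few very abundant genes can move. Bowtie2, RSEM, DESeq2 and GRCm38.p6 are named, per the submitters' processing notes, without their roles. Low values of genes with 1 annotated transcript were compared with whole fragments. At the best-fitting depth of each library 28.4% to 37.5% of them lay within 0.1 of a whole number, where an even spread gives 20%. Depth is therefore unknown, and intervals for counting error are left out.

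Where the mean over the 4 libraries reached 1 FPKM, genes were tested as log2(FPKM + 1) with limma 3.58.1 in R 4.3.3 (trend and robust moderation, group as the term, Benjamini-Hochberg over all 9818 genes, threshold 0.05), after the code was tested on simulated data. A mean given as a number of times another is a ratio of FPKM. Values per library are given for members past the threshold, with an unadjusted p under 0.05, with a mean of at least 20 FPKM, or in a pair with both sides at 1 FPKM or more, and for others where their role is described. From the signalling and processing lists, genes with an unadjusted p under 0.05 and the 4 of the highest mean in each are named. The members and lists were chosen with earlier results of these data known. All 42 members had a position in the RefSeq annotation of GRCm38.p6, the source of the coordinates and upstream sequences. Alternatives changed the pseudocount, the filter, the scaling, the moderation, the replicate block and the libraries included.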

Additional observations from a re-analysis of the deposited data

How the results depend on the processing

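Of 14 alternatives, 10 ended the call of Tnfrsf9. Over all genes, 21 were called as reported, and 0 when the pseudocount was 0.1, when low genes were kept, under the replicate block, under quantile normalization, and without trend or robust moderation, while median-ratio scaling left 1 (limma; 774 to 1012 genes had an unadjusted p under 0.05 in these settings). Among members, 1 was called as reported and 0 in each of these 6 settings (limma; 8 or 9 members had an unadjusted p under 0.05). Without each library in turn, 0 genes and 0 members were called (limma; 528 to 896 genes and 6 to 8 members at an unadjusted p under 0.05). The cause was not tested. The adjusted p of Tnfrsf9 ranged from 0.0313 to 0.650 over the 14 alternatives (limma). With 5 FPKM in 2 libraries, with each library rescaled to a common total, without the 20 highest genes in the total, or without erythroid and mast cell markers in the total (chosen after seeing the data), 20 to 25 genes and 1 member were called. Of genes at an unadjusted p under 0.05, 51.1% were higher in KO as reported, and 69%, 66.3% and 69.8% under these 3 rescalings. Signalling and processing genes had 0 calls in every setting (limma; 1 to 4 at an unadjusted p under 0.05).

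The replicate numbers are not tied to a pairing by the labels, and same-numbered deviations from the group means correlated at 0.025 across 9818 genes. With the replicate block 0 genes and 0 members were called (limma).

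The sign changed in some alternative for 11 of 28 tested members. With 1 library left out, log2 fold changes ranged from -3.0 to 0.21 for Cd70, -0.17 to 1.34 for Tnfrsf10b, -0.16 to 0.68 for Tnfrsf4, -0.12 to 1.07 for Tnfrsf26, -0.74 to 0.29 for Tnfrsf11a and -0.60 to 0.25 for Tnfrsf21. They ranged from -0.046 to 0.25 for Tnfrsf1b, -0.47 to 0.76 for Tnfrsf13b, -0.81 to 1.17 for Tnfsf13, -0.21 to 0.25 for Tnfsf14 and -0.44 to 0.48 for Tnfsf18. With a pseudocount of 0.1 the log2 fold change of Tnfsf18 was -0.0055. The other 17 kept their sign. All of these but Tnfrsf22 had groups that do not overlap, so leaving out 1 library could not change their sign. Depth is not given by the deposited values, so differences among members near 0 FPKM cannot be judged.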
